A study of Homo sapiens with 12 samples.

Results

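The genes described here are 34 genes of antigen processing and presentation: the chains of the MHC class I and class II molecules, the proteins that cut, move and load the peptides these molecules display, 3 transcriptional regulators of the MHC genes, and 3 class I-like genes. They were taken by symbol from a list, and the rule itself uses no measured value, although the list was drawn up with earlier results of these data known. Of the 34, 29 had a row among the 37247 Ensembl gene identifiers of each table, and none had more than 1 identifier. HLA-DPA1, HLA-DPB1, HLA-DOA, PSMB8 and PSMB9 had no row and are not analysed here.

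RNA was sequenced from LC-2/ad, a lung adenocarcinoma line, and TPC-1, a papillary thyroid carcinoma line, which the series title groups as RET-aberrant. Cells of each line were either kept for 48 h in 100 nM selpercatinib, a drug that blocks the kinase RET, or were parent cells whose treatment is given as none. Each of the 4 groups had 3 libraries of total RNA. The medium of LC-2/ad combined RPMI-1640 with F-12, that of TPC-1 was RPMI-1640 alone, and fetal bovine serum was added to both. The labels do not state whether parent cells received the solvent of the drug, nor whether each library is a culture of its own. The p-values below therefore rest on the variation among libraries, and this may be technical. Both groups of a line share that line's RET lesion and genetic background, so no comparison here is with a cell that lacks the lesion.

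MHC class I molecules pair a polymorphic heavy chain with beta-2-microglobulin and show peptides made in the cytosol to CD8+ T cells. The proteasome and its interferon-inducible form cut those peptides, the TAP transporter moves them into the endoplasmic reticulum, aminopeptidases trim them, and tapasin and its relative TAPBPR edit which peptide is bound. MHC class II molecules show peptides of the endosomal route to CD4+ T cells. They are kept free of peptide by the invariant chain CD74, which cathepsin S degrades. Epithelial cells use the class I route and can also switch on class II genes, a switch driven mainly through interferon gamma and the coactivator CIITA.

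Values were TPM, the length-normalised share of transcripts scaled to 1000000 per library, a unit that divides by transcript length and so allows levels of different genes to be set side by side. Sequencing depth cannot be read from TPM and is unknown here. At 1 TPM or more, LC-2/ad libraries listed 13713 to 14336 genes and TPC-1 libraries 12554 to 12967. Mitochondrial DNA transcripts took 14.01% to 14.95% of the TPM in selpercatinib-treated LC-2/ad libraries, against 9.72% to 9.82% in the parent libraries. In TPC-1 they took 5.83% to 6.82% in treated libraries and 6.41% to 7.56% in parent libraries. TPM are shares of a fixed total, so a larger share of these transcripts leaves a smaller one for the rest. Removing these transcripts turned no called member to the other direction. The lines were deposited in separate tables, so levels are set beside each other between lines only as listed. Of the lineage markers, NKX2-1 lay between 105 and 141 TPM in LC-2/ad and was listed at 0 in all TPC-1 libraries. PAX8 lay between 153.8 and 285.0 TPM in TPC-1 and between 14.04 and 24.59 TPM in LC-2/ad. Other markers did not separate the lines in this way. The thyroid marker FOXE1 was listed at 11.297 to 38.42 TPM in LC-2/ad and at 8.286 to 9.832 TPM in TPC-1. The lung epithelial marker KRT7 was listed at 2347 to 3458 TPM in LC-2/ad and at 1972 to 2824 TPM in TPC-1. SFTPB did not pass 0.861 TPM in LC-2/ad. The thyroid gene TSHR did not pass 0.258 TPM in TPC-1.

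Of the 34 genes, 21 lie in the MHC region of chromosome 6, of which 16 had a row, and 13 lie on other chromosomes. The tables also list 2627 identifiers that have no symbol and no place in the primary GRCh38 assembly of GENCODE 29. They took 2.63% to 2.86% of the TPM of each library. Among those of them that reached 10 TPM in a line, 70 of 316 (22.2%) were under 1 TPM in the other line, against 455 of 9478 protein-coding genes of the primary assembly (4.8%). Reads of a polymorphic MHC gene can be assigned to a sequence other than the primary one, so the value of an MHC region gene below is that of 1 identifier and may be a part of the gene's total. A low value or a 0 there, which was frequent in TPC-1, is therefore given only as the listed value and not as a lack of transcript.

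Sequences around the start sites of members are shown first, because several hold short elements known for the regulation of these genes. RefSeq windows on GRCh38.p14, from 250 bases before to 50 bases after an annotated start, were given for 29 of the 34 genes, 9 of them with more than 1 window, 40 windows in all. HLA-E, HLA-DRA, CTSS, NLRC5 and CIITA had none. A core of the element bound by interferon regulatory factors, GAAANNGAAA on either strand, was found in 12 of the 40 windows, those of 12 genes, and in 1255 of 35116 windows of all genes (3.57%). The 12 genes were HLA-F, B2M, PSMB8, PSMB10, PSME1, PSME2, TAP1, TAP2, TAPBP, ERAP1, ERAP2 and RFX5. The stretches of the 8 tested genes whose core lies before the start are printed 5′ to 3′ along the strand of the gene, with the core in capitals. Where the capitals begin with TTTC, the core lies on the other strand. In B2M, TAP1 and TAPBP a pair of cores overlap and share their middle GAAA. The stretches are chr15:44711353-44711408 on the plus strand for B2M, chr6:33314063-33314118 on the minus strand for TAPBP, chr6:32853803-32853858 on the minus strand for TAP1, chr6:32838768-32838817 on the minus strand for TAP2, chr16:67936842-67936891 on the minus strand for PSMB10, chr14:24146609-24146658 on the minus strand for PSME2, chr1:151347177-151347226 on the minus strand for RFX5 and chr5:96876450-96876499 on the plus strand for ERAP2.
B2M: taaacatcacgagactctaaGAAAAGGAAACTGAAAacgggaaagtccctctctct
TAPBP: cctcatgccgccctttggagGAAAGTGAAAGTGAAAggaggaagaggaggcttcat
TAP1: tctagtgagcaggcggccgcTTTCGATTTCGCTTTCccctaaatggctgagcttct
TAP2: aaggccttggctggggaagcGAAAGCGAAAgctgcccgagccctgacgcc
PSMB10: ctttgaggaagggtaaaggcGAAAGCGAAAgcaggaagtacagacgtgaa
PSME2: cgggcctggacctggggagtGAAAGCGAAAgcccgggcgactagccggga
ERAP2: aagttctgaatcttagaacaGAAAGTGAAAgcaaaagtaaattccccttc
RFX5: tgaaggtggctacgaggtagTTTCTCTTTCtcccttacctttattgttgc
The cores of PSMB10, PSME2 and TAP2 had the same letters, GAAAGCGAAA, and started 21, 28 and 58 bases before their starts.

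A second set shows matches to 2 further elements known from MHC gene promoters, the X box and the Y box. The X box core GCAACNGATG, the element bound by the RFX complex, was found in 1 of the 40 windows, that of HLA-DRB1, and in 49 of the 35116 windows of all genes (0.14%). Only these fixed letters were searched, so a window without a match can still hold a variant. The windows of HLA-DMA and HLA-DMB, counted as without the core, hold the similar letters GTGACTGATG and GTAACTGATG. The Y box core ATTGG, read as CCAAT on the other strand and bound by NF-Y, was found in 20 of the 40 windows and in 34.6% of all windows. The stretches, with both cores in capitals, are chr6:32589870-32589946 for HLA-DRB1, chr6:31357211-31357280 for HLA-B, chr6:31272124-31272207 for HLA-C and chr5:150412939-150412983 for CD74, all on the minus strand.
HLA-DRB1: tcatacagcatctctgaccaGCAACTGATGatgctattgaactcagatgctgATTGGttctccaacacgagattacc
HLA-B: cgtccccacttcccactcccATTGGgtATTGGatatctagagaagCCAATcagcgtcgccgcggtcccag
HLA-C: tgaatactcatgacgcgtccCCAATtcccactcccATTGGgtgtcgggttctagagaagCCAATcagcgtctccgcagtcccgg
CD74: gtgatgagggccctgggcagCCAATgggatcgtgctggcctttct
In HLA-DRB1 the Y box core follows the X box core. In HLA-B 3 Y box cores lie within the stretch shown, and HLA-C shows 3 as well. The element TTCNNNGAA of STAT factors was found in 3 of the 40 windows and in 7.66% of all. Each match is a description of the letters in these windows and does not show binding.

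In LC-2/ad, selpercatinib-treated cells had higher levels of most of the tested genes of the class I route and of the class II chain HLA-DRA with CD74 and cathepsin S. Of the 29 genes with a row, 23 had a mean of at least 1 TPM over the 6 libraries and were tested; the 23 had means of at least 1 TPM in both groups. By limma on log2(TPM + 1), with Benjamini-Hochberg adjustment over all 14118 genes tested, 14 of the 23 were higher in treated cells and 2 were lower. Over all genes tested 30.6% were higher, 24.4% were lower and 55% changed in either direction, so a call in this line was by itself common. The median log2 fold change was 0.41 over the 23 genes and 0.07 over all genes tested. In all 16 called genes the treated and parent libraries did not overlap, and in the other 7 they did; over all genes tested the libraries did not overlap in 62.8%, so this too was common. Among the 12 tested members outside chromosome 6, 9 were higher and 1 was lower, and among the 11 tested on chromosome 6, 5 were higher and 1 was lower. In bulk RNA fewer cells of a type and less RNA per cell cannot be told apart.

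In TPC-1 fewer of the genes could be tested and fewer changed. Of the 29 genes, 16 reached the mean of 1 TPM, and 5 of them were higher in treated cells: B2M, TAPBP, TAPBPL, CD74 and CTSS. None was lower by limma, and at an unadjusted p under 0.05 there were 10 higher and 0 lower, where all genes tested gave 14.8% higher and 6.67% lower. Of all 12825 genes tested in this line, 3.75% were higher, 1.21% were lower and 4.96% changed in either direction. The median log2 fold change was 0.32 over the 16 genes and 0.05 over all genes tested. All 5 were also among the 14 higher genes of LC-2/ad, so that they made up 5 of 14 in one line and 5 of 5 in the other. Over all genes, 230 of the 481 higher in TPC-1 (47.8%) were also among the 4319 higher in LC-2/ad (5.33% of these). Only 424 of the 481 were tested in LC-2/ad, while all 5 members were tested in both lines. Of the 5 members, CD74 kept its call under all 14 alternatives tried. The call of B2M was lost under 4 of 14, that of TAPBP under 9 of 13, that of TAPBPL under 9 of 14 and that of CTSS under 9 of 13. Leaving out 1 library at a time left between 1 and 3 of the 5 calls, with 1 call where parent library 2 or parent library 3 was left out, 2 where treated library 1 or 2 was, and 3 where parent library 1 or treated library 3 was.

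**Figure D1:**
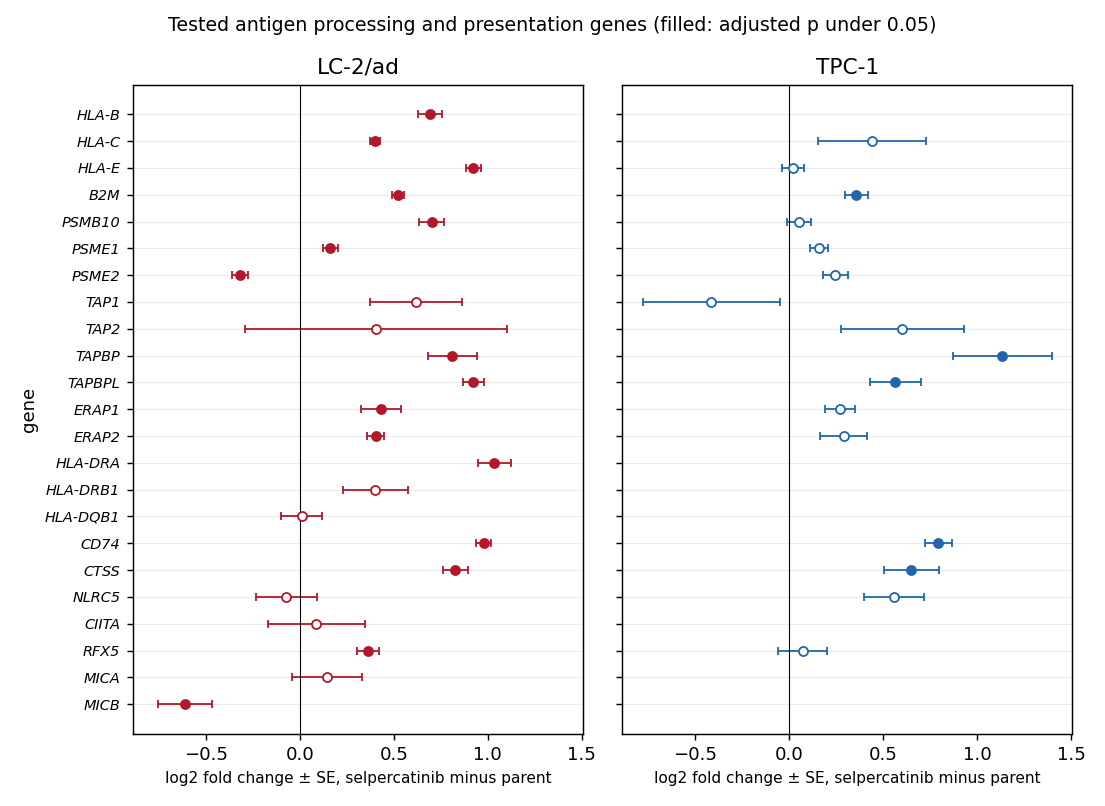
Log2 fold change on the log2(TPM + 1) scale, selpercatinib minus parent, for the tested genes of antigen processing and presentation in LC-2/ad (left, 23 genes) and TPC-1 (right, 16 genes). Points are limma estimates from 3 libraries per group, bars are ± 1 standard error, and filled points passed the adjusted threshold of 0.05; PSME2 and MICB are the filled points below 0 in LC-2/ad, and no filled point lies below 0 in TPC-1.

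The class I chains are the heavy chains HLA-B, HLA-C, HLA-E, HLA-F and HLA-G and the light chain B2M. All 4 that could be tested in LC-2/ad were higher in treated cells, and of the 3 tested in TPC-1 B2M was higher.

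B2M (ENSG00000166710, chr15:44711487-44718877) encodes beta-2-microglobulin, the light chain that every class I heavy chain needs for folding and transport. It had 1544, 1520 and 1493 TPM in treated LC-2/ad cells, against 1072, 1080 and 1022 TPM in parent LC-2/ad cells. Its level was the highest of all members in both lines, and every treated library lay above every parent library. The log2 fold change was 0.52 ± 0.03 (SE; adjusted p = 6.1e-06). In TPC-1 it had 1228, 1144 and 1088 TPM in treated cells and 965, 859 and 876 TPM in parent cells, again with no overlap. There the log2 fold change was 0.36 ± 0.06 (adjusted p = 0.0125). Without parent library 2 the adjusted p was 0.0576, and without parent library 3 it was 0.0677.

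HLA-B and HLA-C are the polymorphic heavy chains of this list, which present peptides to T cells and serve as ligands of killer cell receptors. HLA-B had 367, 425 and 421 TPM in treated LC-2/ad cells, against 250, 237 and 261 TPM in parent cells (log2 fold change 0.69 ± 0.06, adjusted p = 6.05e-05). HLA-C had 452, 445 and 453 TPM in treated cells, against 341, 343 and 337 TPM in parent cells (0.40 ± 0.03, adjusted p = 1.45e-05). The 3 treated libraries lay above the 3 parent libraries for both genes. In GENCODE 29 the spans of these genes share 2640 bases on the same strand, and the genes are near copies of each other, so the division of reads between them is uncertain. In TPC-1 the listed identifier of HLA-B had 0.749, 0.700 and 0.553 TPM in treated cells and 0.969, 0 and 0.697 TPM in parent cells, and was not tested. That of HLA-C had 2.71, 1.97 and 2.44 TPM in treated cells and 1.72, 0.559 and 2.56 TPM in parent cells. The groups overlapped (log2 fold change 0.44 ± 0.29, adjusted p = 0.423).

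HLA-E (ENSG00000204592, chr6:30489467-30494205) is a nearly invariant heavy chain that carries leader peptides of other class I chains and is read by the NKG2A receptor of natural killer cells. It had 106, 108 and 108 TPM in treated LC-2/ad cells, against 56.4, 55.5 and 56.2 TPM in parent cells. The treated libraries stood at 1.91 times the parent level, with an SD under 1 TPM within each group (log2 fold change 0.92 ± 0.04, adjusted p = 1.27e-06). In TPC-1 HLA-E had 89.6, 91.2 and 91.8 TPM in treated cells and 94.6, 89.5 and 84.9 TPM in parent cells. The parent libraries spanned the treated ones there (0.02 ± 0.06, adjusted p = 0.876). As listed, HLA-E was thus higher in LC-2/ad than in TPC-1 among treated cells and lower in LC-2/ad among parent cells.

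HLA-F and HLA-G, heavy chains of restricted expression, were under the filter in both lines. HLA-F was listed at 0, 0 and 0.560 TPM in treated and at 0.246, 0 and 0 TPM in parent LC-2/ad libraries, and did not pass 0.956 TPM in TPC-1. HLA-G had 0.202, 0.245 and 0.272 TPM in treated and 0.570, 1.45 and 0.709 TPM in parent LC-2/ad libraries, and did not pass 0.0206 TPM in TPC-1. These values were too low for the test, although for HLA-G all treated LC-2/ad libraries lay below the parent ones.

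**Figure D2:**
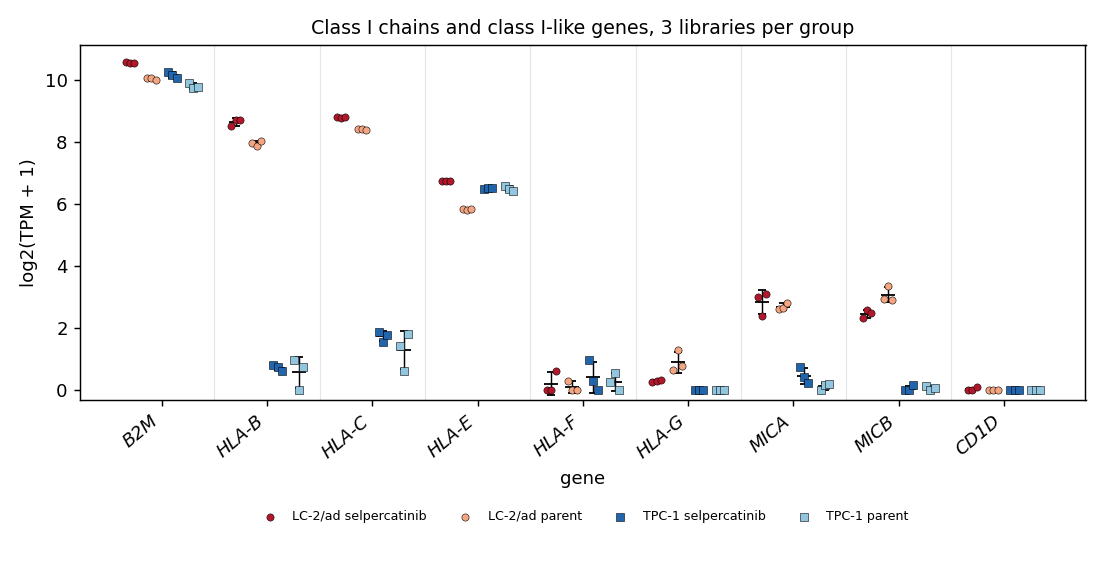
Level of the class I chains and class I-like genes as log2(TPM + 1), a log scale, in each of the 12 libraries. Points are libraries, circles LC-2/ad and squares TPC-1, dark for selpercatinib and light for parent; bars show the mean ± SD of 3 libraries. B2M is the highest gene in every library, HLA-E is raised in treated LC-2/ad libraries and level in TPC-1, and the listed identifiers of HLA-B and HLA-C are far lower in TPC-1 than in LC-2/ad.

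The proteins that make, move and load class I peptides were represented by 9 genes with a row, tested in both lines. In LC-2/ad 6 of the 9 were higher and 1 was lower. In TPC-1 TAPBP and TAPBPL were higher, and at an unadjusted p under 0.05 there were 6 higher and 0 lower. All genes tested gave 30.6% higher and 24.4% lower in LC-2/ad, and 3.75% higher in TPC-1. At an unadjusted p under 0.05 they gave 14.8% higher and 6.67% lower in TPC-1.

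PSMB10 encodes a catalytic subunit of the immunoproteasome, the interferon-inducible form of the proteasome. It had 84.0, 85.8 and 85.7 TPM in treated LC-2/ad cells, against 57.4, 51.1 and 47.9 TPM in parent cells (0.70 ± 0.07, adjusted p = 7.6e-05). In TPC-1 it had 65.1, 71.5 and 70.5 TPM in treated cells and 63.9, 70.8 and 64.9 TPM in parent cells (0.05 ± 0.07, adjusted p = 0.697). The groups were apart in LC-2/ad and overlapped in TPC-1. The span of PSMB10 shares 1516 bases with another protein-coding annotation on the same strand, so its value is uncertain.

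PSME1 and PSME2 encode the alpha and beta subunits of PA28, the interferon-inducible activator that caps the proteasome as a mixed ring of both. PSME1 had 303, 299 and 290 TPM in treated LC-2/ad cells and 252, 273 and 271 TPM in parent cells (0.16 ± 0.04, adjusted p = 0.0109). PSME2 had 188, 206 and 196 TPM in treated LC-2/ad cells and 241, 246 and 249 TPM in parent cells (−0.32 ± 0.04, adjusted p = 0.000397). The subunits of this ring thus moved in opposite directions in LC-2/ad, each with no overlap between the groups. The rise of PSME1 was small and missed the threshold with median-of-ratios scaling (0.10, adjusted p = 0.0606) and without a variance trend (adjusted p = 0.051). In TPC-1 PSME1 had 216, 209 and 210 TPM in treated cells and 194, 191 and 182 TPM in parent cells (0.16 ± 0.05, adjusted p = 0.0938). PSME2 had 137, 122 and 122 TPM in treated TPC-1 cells and 102, 111 and 106 TPM in parent TPC-1 cells (0.25 ± 0.06, adjusted p = 0.0655). For both genes all 3 treated TPC-1 libraries lay above the parent ones, although neither passed the adjusted threshold. PSME2 shares 888 bases of its span with RNF31 on the opposite strand, and the use of strand in counting is not stated.

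TAP1 and TAP2 form the peptide transporter of the endoplasmic reticulum. TAP1 had 8.36, 17.8 and 14.2 TPM in treated LC-2/ad cells and 6.60, 8.44 and 9.33 TPM in parent cells (0.62 ± 0.25, adjusted p = 0.0639). Treated library 1 lay among the parent libraries, and without it the log2 fold change was 0.90 (adjusted p = 0.00349). In TPC-1 TAP1 had 1.29, 2.41 and 5.31 TPM in treated cells and 6.02, 3.50 and 2.69 TPM in parent cells (−0.41 ± 0.37, adjusted p = 0.565). TAP2 had 5.98, 3.48 and 11.98 TPM in treated and 0.835, 6.01 and 12.6 TPM in parent LC-2/ad cells (0.41 ± 0.70, adjusted p = 0.649). In TPC-1 TAP2 had 8.55, 11.2 and 5.01 TPM in treated cells and 8.47, 3.52 and 3.66 TPM in parent cells (0.60 ± 0.33, adjusted p = 0.331). Libraries of the same group spread widely for both genes, and neither gene was called in either line. TAP1 passed in LC-2/ad without transcripts of mitochondrial DNA (adjusted p = 0.0441) and over genes with a mean of at least 5 TPM (adjusted p = 0.0457). The span of TAP1 shares 8770 bases with PSMB9 on the opposite strand, and that of TAP2 shares 16948 bases with another annotation on the same strand.

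TAPBP encodes tapasin, which holds empty class I molecules at the transporter, and TAPBPL encodes TAPBPR, a peptide editor that works away from it. TAPBP had 8.42, 8.98 and 9.83 TPM in treated LC-2/ad cells and 5.16, 5.38 and 3.79 TPM in parent cells (0.81 ± 0.13, adjusted p = 0.00129). TAPBPL had 67.2, 68.1 and 66.9 TPM in treated cells and 36.7, 32.9 and 35.8 TPM in parent cells (0.92 ± 0.05, adjusted p = 6.55e-06). Both groups stood apart for both genes, and the level of TAPBPL in treated cells was 1.92 times that in parent cells. In TPC-1 TAPBP had 3.53, 5.88 and 3.52 TPM in treated cells and 2.203, 1.45 and 0.700 TPM in parent cells (1.13 ± 0.26, adjusted p = 0.0455). TAPBPL had 9.88, 9.63 and 7.27 TPM in treated TPC-1 cells and 5.61, 5.49 and 5.86 TPM in parent TPC-1 cells (0.57 ± 0.13, adjusted p = 0.0474). The treated libraries again lay above the parent ones, at levels where a few TPM decide the value. Of 6 libraries left out in turn, 5 ended the call of each gene: for TAPBP all but parent library 1, with adjusted p between 0.0648 and 0.145, and for TAPBPL all but treated library 3, with adjusted p between 0.0721 and 0.154. The span of TAPBPL shares 4281 bases with VAMP1 on the opposite strand.

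ERAP1 and ERAP2 are the aminopeptidases that trim peptides in the endoplasmic reticulum to the length a class I groove takes. ERAP1 had 25.1, 24.2 and 20.4 TPM in treated LC-2/ad cells and 19.1, 14.999 and 16.9 TPM in parent cells (0.43 ± 0.11, adjusted p = 0.0107). ERAP2 had 75.8, 76.1 and 72.3 TPM in treated cells and 54.7, 58.0 and 56.1 TPM in parent cells (0.40 ± 0.05, adjusted p = 0.000188). In LC-2/ad both rose, with no overlap between groups. In TPC-1 ERAP1 had 39.7, 41.1 and 36.3 TPM in treated cells and 34.5, 30.4 and 31.6 TPM in parent cells (0.27 ± 0.08, adjusted p = 0.0866). ERAP2 had 37.1, 35.5 and 29.2 TPM in treated TPC-1 cells and 32.3, 23.98 and 26.6 TPM in parent TPC-1 cells (0.29 ± 0.12, adjusted p = 0.22). Of the pair, ERAP2 had the higher level in LC-2/ad, while in TPC-1 the ranges of both overlapped. ERAP1 shares 18786 bases of its span with CAST on the opposite strand.

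**Figure D3:**
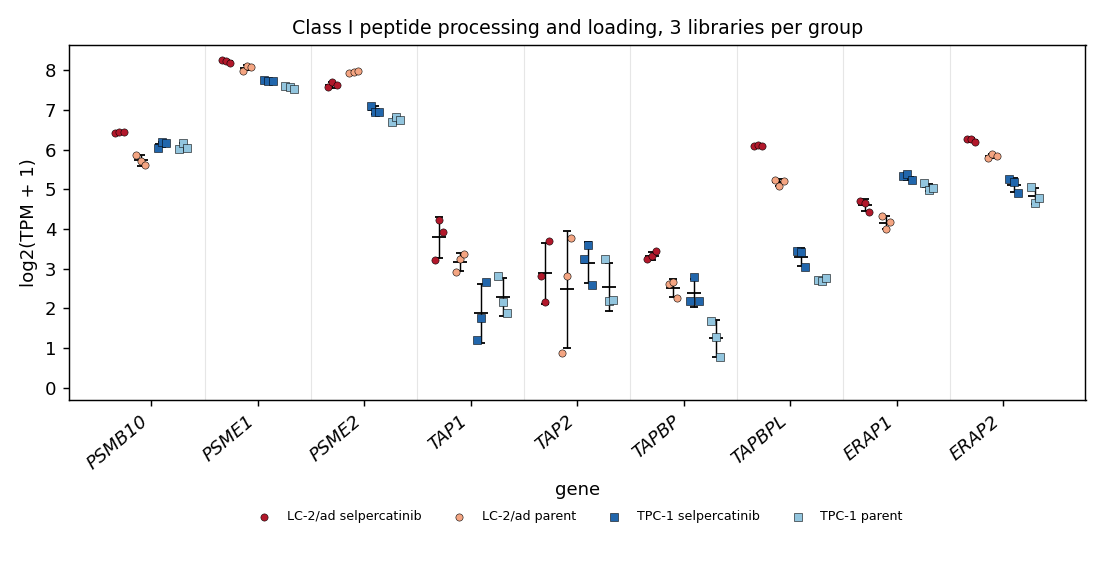
Level of the 9 genes of class I peptide processing and loading as log2(TPM + 1), a log scale, in each of the 12 libraries. Points are libraries, circles LC-2/ad and squares TPC-1, dark for selpercatinib and light for parent; bars show the mean ± SD of 3 libraries. PSME2 is lower in treated LC-2/ad libraries while its partner PSME1 is higher, and TAP1 and TAP2 spread widely within groups.

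The IRF-type core shown above was held by 10 of the members tested in LC-2/ad, of which 7 were higher, 1 was lower and the rest were not called. Of the 8 tested members that had a window without the core, 4 were higher and 1 was lower. Over all genes tested in LC-2/ad, 30.6% were higher and 24.4% were lower. The search took only the fixed letters of the core. The windows of HLA-B and HLA-C, counted as without it, hold the similar letters TTTCACTTCT. In TPC-1 2 of 10 tested members with the core were higher, and 2 of 3 with a window and no core. Over all genes tested in TPC-1, 3.75% were higher. PSMB10 and PSME2, whose cores had the same letters, had log2 fold changes of 0.70 and −0.32 in LC-2/ad. These counts describe the members, and neither group was compared with a test.

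In the class II route, CD74, CTSS and HLA-DRA were higher in treated LC-2/ad cells, and CD74 and CTSS in treated TPC-1 cells. CD74 (ENSG00000019582, chr5:150401637-150412929) encodes the invariant chain, which occupies the groove of new class II molecules and guides them to endosomes. It had 125, 127 and 124 TPM in treated LC-2/ad cells, against 61.1, 63.8 and 65.2 TPM in parent cells. The treated level was 1.98 times the parent level (log2 fold change 0.98 ± 0.04, adjusted p = 1.43e-06). In TPC-1 it had 58.7, 52.5 and 55.0 TPM in treated cells and 33.1, 30.7 and 30.7 TPM in parent cells, 1.76 times the parent level (0.80 ± 0.07, adjusted p = 0.000509). No treated library overlapped a parent library in either line, and over the alternatives the adjusted p in TPC-1 reached at most 0.0064.

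CTSS (chr1:150730196-150765957) encodes cathepsin S, the protease that removes the invariant chain from class II molecules. It had 123, 135 and 124 TPM in treated LC-2/ad cells, against 65.0, 74.9 and 74.0 TPM in parent cells (0.83 ± 0.07, adjusted p = 3.09e-05). In TPC-1 it had 5.83, 4.69 and 6.34 TPM in treated cells and 2.86, 3.54 and 3.20 TPM in parent cells (0.65 ± 0.15, adjusted p = 0.0424). The treated level was 1.78 times the parent level in LC-2/ad and 1.76 times in TPC-1. Leaving out any 1 of the 6 TPC-1 libraries ended that call, with adjusted p between 0.0513 and 0.139.

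HLA-DRA (ENSG00000204287, chr6:32439842-32445046) encodes the alpha chain that every HLA-DR molecule contains. It had 14.1, 15.03 and 14.4 TPM in treated LC-2/ad cells, against 6.17, 6.32 and 7.21 TPM in parent cells. This was 2.21 times the parent level, with no overlap (log2 fold change 1.04 ± 0.09, adjusted p = 3.73e-05). HLA-DRB1, a beta chain that pairs with it, had 3.22, 3.99 and 4.23 TPM in treated cells and 1.92, 2.85 and 3.26 TPM in parent cells (0.40 ± 0.17, adjusted p = 0.0846). HLA-DQB1, the beta chain of HLA-DQ, had 6.31, 5.08 and 5.18 TPM in treated cells and 5.37, 5.38 and 5.62 TPM in parent cells (0.01 ± 0.11, adjusted p = 0.945). Of the 3 tested class II chains in LC-2/ad, HLA-DRA passed the test, and the libraries of the other 2 overlapped. In TPC-1 the identifiers of HLA-DRA, HLA-DRB1 and HLA-DQB1 were listed at 0 in all 6 libraries.

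The remaining class II genes with a row were under the filter in both lines. HLA-DQA1, the alpha chain of HLA-DQ, had 1.15, 0.979 and 0.614 TPM in treated LC-2/ad cells and 0.274, 0.621 and 0.329 TPM in parent cells, and did not pass 0.111 TPM in TPC-1. HLA-DMA and HLA-DMB, which form the editor that exchanges the CD74 fragment for peptide, did not pass 0.198 TPM in any library. In LC-2/ad HLA-DMB was listed at 0 throughout.

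**Figure D4:**
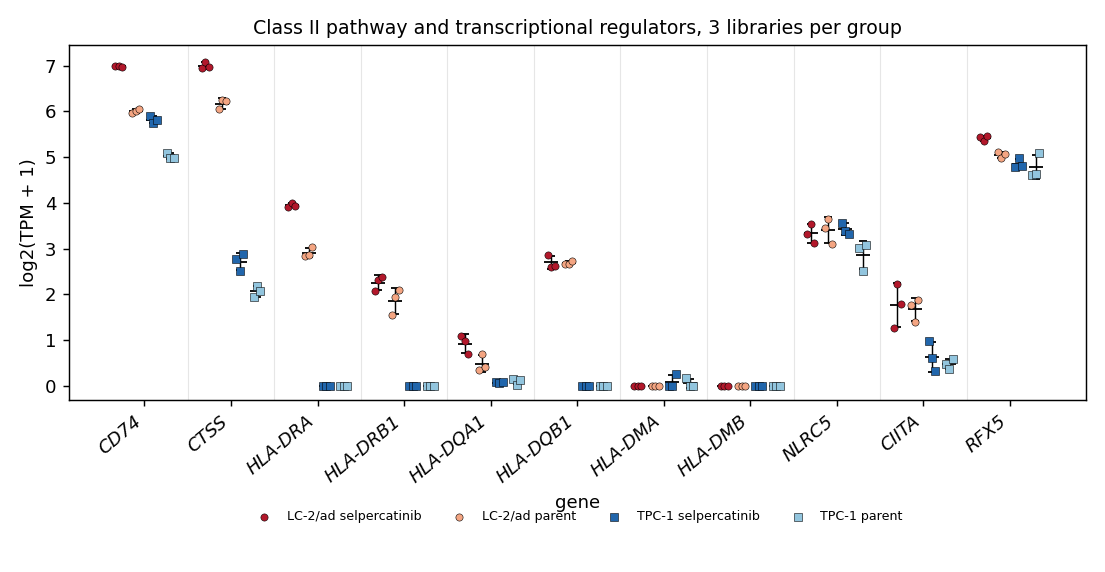
Level of the class II genes and of the 3 transcriptional regulators as log2(TPM + 1), a log scale, in each of the 12 libraries. Points are libraries, circles LC-2/ad and squares TPC-1, dark for selpercatinib and light for parent; bars show the mean ± SD of 3 libraries. CD74 and CTSS are higher in treated libraries of both lines, HLA-DRA is higher in treated LC-2/ad libraries, and the listed HLA-DR and HLA-DQ beta identifiers are at 0 in TPC-1.

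Of the 3 regulators, which switch on the MHC genes, 1 was higher in treated LC-2/ad cells. Of the 2 tested in TPC-1 none was called by limma, and 1 was higher and 0 lower at an unadjusted p under 0.05. The count in LC-2/ad lay near the share of all genes tested that was higher there, 30.6%. In TPC-1 14.8% of all genes tested were higher at an unadjusted p under 0.05. NLRC5, the coactivator of class I genes, had 9.05, 10.7 and 7.74 TPM in treated LC-2/ad cells and 10.0, 11.6 and 7.56 TPM in parent cells (−0.07 ± 0.16, adjusted p = 0.737). CIITA, the coactivator of class II genes, had 1.42, 3.69 and 2.48 TPM in treated cells and 2.40, 1.62 and 2.68 TPM in parent cells (0.09 ± 0.26, adjusted p = 0.793). RFX5, a subunit of the complex that binds the X box, had 42.1, 40.005 and 42.8 TPM in treated cells and 33.4, 30.4 and 32.8 TPM in parent cells (0.36 ± 0.06, adjusted p = 0.00118). RFX5 was the one regulator that passed the test, and the libraries of the other 2 overlapped. In TPC-1 NLRC5 had 10.9, 9.49 and 9.05 TPM in treated cells and 7.03, 4.75 and 7.49 TPM in parent cells (0.56 ± 0.16, adjusted p = 0.0873), with treated libraries above parent ones. RFX5 had 26.7, 30.5 and 26.9 TPM in treated TPC-1 cells and 23.5, 23.99 and 33.2 TPM in parent TPC-1 cells (0.07 ± 0.13, adjusted p = 0.795). CIITA did not pass 0.982 TPM in TPC-1 and was not tested there. It shares 13570 bases of its span with DEXI on the opposite strand.

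MICA and MICB are class I-like proteins that bind no peptide and are ligands of the activating receptor NKG2D on natural killer and T cells. MICB had 4.05, 5.02 and 4.63 TPM in treated LC-2/ad cells, against 6.77, 9.29 and 6.61 TPM in parent cells. All treated libraries lay below the parent ones (−0.61 ± 0.14, adjusted p = 0.00804), the opposite direction to the tested class I chains. MICA had 7.16, 4.33 and 7.62 TPM in treated cells and 5.18, 5.32 and 6.12 TPM in parent cells (0.14 ± 0.19, adjusted p = 0.54). Without treated library 2, the lowest of the 6, the log2 fold change of MICA was 0.36 (adjusted p = 0.0383). In TPC-1 neither identifier passed 0.684 TPM. CD1D, which presents lipids, did not pass 0.0718 TPM in any library.

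The responses of the lines were compared by their difference, TPC-1 log2 fold change minus LC-2/ad log2 fold change, in a limma fit of all 12 libraries. Of 16 members that could be tested, 3 differed, and over all 11996 genes tested 36.6% did. HLA-E differed by −0.90 ± 0.06 (adjusted p = 4.34e-07), PSMB10 by −0.65 ± 0.10 (adjusted p = 0.00018) and PSME2 by 0.56 ± 0.08 (adjusted p = 0.000105). HLA-E and PSMB10 thus rose in LC-2/ad with no detected change in TPC-1, and PSME2 was lower in LC-2/ad while its treated values in TPC-1 lay above the parent ones. These 3 differences kept their call under all 20 alternatives. For B2M the difference was −0.16 (adjusted p = 0.0929), and for CD74 it was −0.18 (adjusted p = 0.079). Both passed when transcripts of mitochondrial DNA were removed, with −0.25 for B2M (adjusted p = 0.0119) and −0.27 for CD74 (adjusted p = 0.0141), and with median-of-ratios scaling (adjusted p = 0.019 and 0.0244). CD74 also passed with a pseudocount of 5 (adjusted p = 0.0331), as did CTSS (adjusted p = 0.00635). A pseudocount of 5 shrinks the log2 fold change most at low levels, such as those of CTSS and TAPBPL in TPC-1. The level of CTSS in treated cells was 1.78 times the parent level in LC-2/ad and 1.76 times in TPC-1. CTSS passed under no other alternative. For TAPBPL the treated level was 1.92 times the parent level in LC-2/ad and 1.58 times in TPC-1. TAPBPL passed with a pseudocount of 5 (adjusted p = 0.00288), with median-of-ratios scaling (adjusted p = 0.0299) and without transcripts of mitochondrial DNA (adjusted p = 0.0218), and NLRC5 over genes with a mean of at least 5 TPM (adjusted p = 0.0494). With treated TPC-1 library 1 left out, 6 members differed: the 3 above, B2M (−0.21, adjusted p = 0.0312), TAPBPL (−0.43, adjusted p = 0.0275) and CD74 (−0.22, adjusted p = 0.0354). TAPBPL also passed without treated TPC-1 library 2 (−0.41, adjusted p = 0.0406), and TAP1 passed without treated TPC-1 library 3 (−1.42, adjusted p = 0.0218). NLRC5, at 0.63 with all libraries, passed without parent LC-2/ad library 3 (0.78, adjusted p = 0.0248), without treated LC-2/ad library 2 (0.74, adjusted p = 0.0447) or without parent TPC-1 library 3 (0.74, adjusted p = 0.0446).

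Genes that work beside the members were counted from fixed lists. Over all genes tested in TPC-1, 3.75% were higher and 1.21% were lower by limma. At an unadjusted p under 0.05 these shares were 14.8% and 6.67%. Of 12 genes of the constitutive proteasome and its assembly, 10 were lower in treated LC-2/ad cells, against 24.4% of all genes tested. None was higher, also at an unadjusted p under 0.05, which 34% of all genes passed as higher. The proteasome assembly chaperone PSMG1 had 38.9 ± 1.04 TPM in treated cells and 61.6 ± 0.91 TPM in parent cells (SD, n = 3 each; −0.65 ± 0.05, limma adjusted p = 1.62e-05). The core subunit PSMA7 had 255 ± 12.6 TPM in treated cells and 382 ± 3.31 TPM in parent cells (−0.58 ± 0.04, limma adjusted p = 1.55e-05). PSMB6, one of several catalytic subunits that have a replacement in the immunoproteasome, fell by 0.45 on the log2 scale, and the assembly factor POMP fell by 0.42. The other 2, PSMD4 and PSME4, did not pass (adjusted p = 0.122 and 0.336). Without transcripts of mitochondrial DNA 9 of the 12 were lower. In TPC-1 0 of the 12 were called by limma, with 1 higher and 0 lower at an unadjusted p under 0.05. The difference between the lines passed the test for 9 of the 12, all positive, against 36.6% of all genes tested. With median-of-ratios scaling or without transcripts of mitochondrial DNA it passed for 7 of 12.

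Of 7 chaperones of peptide loading and quality control, 4 were higher and 2 were lower in treated LC-2/ad cells. Over all genes tested in this line 30.6% were higher, 24.4% were lower and 55% changed in either direction. Calreticulin (CALR), which holds the heavy chain during loading, had 874 ± 4.05 TPM in treated cells and 739 ± 10.0 TPM in parent cells (SD, n = 3 each; 0.24 ± 0.03, limma adjusted p = 0.000118). PDIA3, the disulfide isomerase bound to tapasin, rose by 0.19 on the log2 scale, while PDIA6, another disulfide isomerase, and UGGT1, the glucosyltransferase that checks folding, each fell by 0.25. Of 7 cytosolic peptidases, which destroy or trim peptides before transport, 1 was higher and 3 were lower, beside the same shares over all genes. Thimet oligopeptidase (THOP1) had 42.3 ± 0.78 TPM in treated cells and 91.7 ± 2.83 TPM in parent cells (SD, n = 3 each; −1.10 ± 0.04, limma adjusted p = 1.27e-06). NPEPPS rose by 0.25, BLMH fell by 0.18 and NRDC fell by 0.15 on the log2 scale. The call of NPEPPS was lost with median-of-ratios scaling, and those of BLMH and NRDC without transcripts of mitochondrial DNA. In TPC-1 no gene of either list was called by limma; at an unadjusted p under 0.05 there were 3 chaperones and 1 peptidase, all higher.

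Of 10 genes of endolysosomal processing for class II, 5 were higher and 4 were lower in treated LC-2/ad cells. All genes tested there gave 30.6% higher and 24.4% lower. MARCHF8, a ubiquitin ligase that removes class II molecules from the surface, had 12.2 ± 1.25 TPM in treated cells and 6.63 ± 1.03 TPM in parent cells (SD, n = 3 each; 0.80 ± 0.12, limma adjusted p = 0.00103). Cathepsin V (CTSV) had 11.2 ± 0.35 TPM in treated cells and 20.2 ± 0.84 TPM in parent cells (−0.80 ± 0.07, limma adjusted p = 4.15e-05, n = 3 each). Cathepsin H (CTSH) rose by 0.61, and IFI30, the thiol reductase of the endosome, fell by 0.37 on the log2 scale. In TPC-1 1 of the 10 was called: cathepsin B (CTSB), with 720 ± 23.8 TPM in treated cells and 599.8 ± 11.8 TPM in parent cells (SD, n = 3 each; 0.26 ± 0.04, limma adjusted p = 0.0108).

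Of 9 tested NKG2D ligands and class I-like genes other than MICA and MICB, 3 were higher and 2 were lower in treated LC-2/ad cells. These counts lay near the shares over all genes tested, 30.6% higher and 24.4% lower. FCGRT, the neonatal Fc receptor heavy chain, had 98.6 ± 3.64 TPM in treated cells and 53.9 ± 1.74 TPM in parent cells (SD, n = 3 each; 0.86 ± 0.05, limma adjusted p = 4.89e-06). MR1, which presents vitamin metabolites, rose by 0.84, and HFE, the class I-like regulator of iron uptake, rose by 0.72. These 3 encode heavy chains that pair with beta-2-microglobulin. AZGP1, a secreted class I-like protein, had 7.04 ± 0.46 TPM in treated cells and 14.5 ± 0.32 TPM in parent cells (SD, n = 3 each; −0.94 ± 0.08, limma adjusted p = 3.86e-05). In TPC-1 0 of 7 tested genes were called by limma, with 1 higher and 0 lower at an unadjusted p under 0.05.

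Of 7 RFX and NF-Y factors and related regulators, 1 was higher and 1 was lower in treated LC-2/ad cells. These counts lay below the shares over all genes tested, 30.6% higher and 24.4% lower. CREB1 was higher by 0.24 on the log2 scale, and EZH2 was lower. EZH2, the histone methyltransferase known to silence class I and CIITA genes in some tumours, had 16.4 ± 1.30 TPM in treated cells and 37.8 ± 3.52 TPM in parent cells (SD, n = 3 each; −1.16 ± 0.09, limma adjusted p = 2.29e-05). The call of CREB1 was lost with median-of-ratios scaling (adjusted p = 0.101). In TPC-1 none of the 7 was called by limma, with 1 higher and 0 lower at an unadjusted p under 0.05.

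Of 20 genes of interferon and NF-kB signalling upstream of the MHC genes, 12 were higher and 1 was lower in treated LC-2/ad cells. In TPC-1 6 were higher and none lower. Over all genes tested 30.6% were higher and 24.4% lower in LC-2/ad, and 3.75% higher and 1.21% lower in TPC-1. At an unadjusted p under 0.05, 9 were higher and 1 was lower in TPC-1, where all genes tested gave 14.8% and 6.67%. In LC-2/ad IRF9, the DNA-binding subunit of the type I interferon complex ISGF3, had 58.2 ± 3.50 TPM in treated cells and 17.04 ± 2.64 TPM in parent cells (SD, n = 3 each; 1.72 ± 0.10, limma adjusted p = 7.41e-06). Its partner STAT2 had 67.3 ± 2.56 TPM in treated cells and 27.7 ± 1.21 TPM in parent cells (SD, n = 3 each; 1.25 ± 0.05, limma adjusted p = 1.64e-06). NFKBIA, an inhibitor of NF-kB that is also its target, rose by 0.79, and IRF1, an activator of class I genes, rose by 0.73. In TPC-1 the leading genes were NFKBIA, with 80.7 ± 10.7 TPM in treated cells and 27.4 ± 2.62 TPM in parent cells (SD, n = 3 each; 1.52 ± 0.11, limma adjusted p = 0.000186), and the NF-kB subunit RELB, which rose by 1.33. IFNGR2, a chain of the interferon gamma receptor, rose by 0.85 there. Of the 7 interferon genes looked at, none reached the filter in either line: the highest value was 0.838 TPM, for IFNE, and IFNG and IFNK were listed at 0 in all 12 libraries.

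The same MHC genes are high in leukocytes, so markers of these cells were read beside the result. The summed level of 12 leukocyte genes was 2.57 to 3.92 TPM in treated and 3.71 to 4.58 TPM in parent LC-2/ad libraries, and 8.17 to 9.37 TPM in treated and 14.2 to 14.9 TPM in parent TPC-1 libraries. MS4A1 and CD1C were listed at 0 in all 12 libraries, and PTPRC, the common leukocyte antigen, did not pass 0.677 TPM. In TPC-1 most of the sum was LAPTM5, with 8.29, 7.66 and 6.75 TPM in treated cells and 13.1, 13.6 and 13.5 TPM in parent cells. The sum was thus lower in treated than in parent cells in TPC-1, and its ranges overlapped in LC-2/ad. The part of such cells in the results was not tested.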

How the data were processed

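RNA-seq values of 12 libraries, 3 per group, were read from 1 table per line. The authors deposited TPM per gene and library, each column summing to 1000000 within rounding. Salmon, bcl2fastq 2.20.0 and GRCh38 appear in the submitters' processing notes; the annotation and any filter are not given in the sources used here. Depth is unknown, so no interval for counting error is given.

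Groups came from the sample labels. Symbols were matched by Ensembl identifier (34436 of 37247 had one), and positions are those of GENCODE 29. Within each line log2(TPM + 1) was compared with limma 3.58.1 in R 4.3.3 (variance trend, two-sided, Benjamini-Hochberg adjustment over all genes with a mean of at least 1 TPM, threshold 0.05), treated minus parent. The difference between the lines was the interaction in a fit of 12 libraries, for genes with a mean of at least 1 TPM in each line. Log2 fold changes are on the log2(TPM + 1) scale, which understates changes of low genes. The members, the related lists and the motifs were chosen with earlier results of these data known. All members are named, and of each related list up to 4 called genes with the largest change per line. A gene that this rule would name is not reported here. Alternatives changed the pseudocount, filter, scaling, mitochondrial transcripts, variance trend, block and libraries. The fits were tested on simulated data. Figures used matplotlib 3.10.9, and tables pandas 2.3.3 and numpy 2.4.6 under Python 3.11.15. Promoter sequences are those of RefSeq (GRCh38.p14).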

Additional observations from a re-analysis of the deposited data

Results flagged for a closer look

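The drug response of 3 of the 16 tested members differed between the lines in the fit of all 12 libraries (limma, Benjamini-Hochberg adjusted). Over all 11996 genes tested 36.6% differed, so a difference was by itself common. HLA-E differed by −0.90 on the log2 scale (TPC-1 minus LC-2/ad, adjusted p = 4.34e-07): it was 1.91 times the parent level in treated LC-2/ad cells and 1.01 times in treated TPC-1 cells. PSMB10 differed by −0.65 (adjusted p = 0.00018), at 1.63 times the parent level in treated LC-2/ad cells and 1.04 times in treated TPC-1 cells. PSME2 differed by 0.56 (adjusted p = 0.000105), at 0.802 times the parent level in treated LC-2/ad cells and 1.19 times in treated TPC-1 cells. Part of the HLA-E transcripts may be counted under other identifiers, and this was not tested.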

How the results depend on the processing

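In LC-2/ad the counts were stable: over all alternatives 13 to 15 members were higher and 2 to 3 were lower, of 6825 to 8049 genes called. In TPC-1 genes called were 636 as reported, 272 without the filter, 356 without a variance trend and 292 to 815 with 1 library left out. The 5 TPC-1 members called higher became 1 without the filter, 3 with median-of-ratios scaling, 2 without a variance trend, 3 with the replicate block and 1 to 3 with 1 library left out. For the difference between the lines the 3 members called became 6 with a pseudocount of 5, 5 without the filter, 6 with median-of-ratios scaling, 6 without transcripts of mitochondrial DNA, 5 with the replicate block and 3 to 6 with 1 library left out. The replicate block gave 7357 genes called in LC-2/ad, 542 in TPC-1 and 4227 for the difference. It added TAP1 in LC-2/ad (limma adjusted p = 0.0148) and B2M (0.0332) and NLRC5 (0.025) for the difference, and removed TAPBPL (0.0679) and CTSS (0.0694) in TPC-1. Same-numbered libraries did not deviate together (r of −0.04, −0.01 and −0.05 in LC-2/ad and 0.05, −0.03 and 0.04 in TPC-1), so the numbers were not taken as pairs. Among calls, the share that was higher was 55.6% in LC-2/ad, 48.6% with median-of-ratios scaling and 64.8% without transcripts of mitochondrial DNA. In TPC-1 it was 75.6%, 63.1% and 72.7%, and for the difference 60.6%, 56.2% and 47.3%. Of 856 values of members under the alternatives, 770 kept direction and side of the threshold, 33 lost a call, 26 gained one and 27 changed sign, all 27 from members that were not called. In LC-2/ad these were HLA-DQB1 with median-of-ratios scaling (−0.042), NLRC5 without transcripts of mitochondrial DNA (5.1e-05), and, with 1 library left out, TAP2 (−0.40 to 1.05), HLA-DQB1 (−0.075 to 0.059), NLRC5 (−0.22 to 0.054) and CIITA (−0.14 to 0.34). In TPC-1 they were HLA-E with median-of-ratios scaling (−0.032) and, with 1 library left out, HLA-E (−0.017 to 0.0599) and RFX5 (−0.011 to 0.23). For the difference they were HLA-C with a pseudocount of 5 (−0.23) and without transcripts of mitochondrial DNA (−0.031), TAPBP with a pseudocount of 5 (−0.0021) and, with 1 library left out, HLA-C (−0.29 to 0.30), PSME1 (−0.029 to 0.035), TAP2 (−0.44 to 1.00) and ERAP2 (−0.21 to 0.0016). The cause was not tested for any of these changes. An alternative that takes the identifier with the highest level in place of the sum gave no value, because no member had several identifiers.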
